A study of Mus musculus with 12 samples.

Results

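A single oligo of the arrays carried a major histocompatibility complex (MHC) class I stretch by the search used here, out of 35852 oligos, and 0 oligos carried a class II stretch. The search read the oligo sequences and no measured value. Each oligo was translated in its 3 forward frames and searched for 6 conserved protein stretches of class I molecules and 5 of class II molecules. The one match, M400009686, held the class I stretch HEGLPEP. The other 5 class I stretches and all 5 class II stretches matched 0 oligos, on either strand. Class II expression was therefore not measured by any oligo that could be recognised here, and the results below concern class I.

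Shorter class I stretches (YYNQS, AHVTHH and RFDSD, in a frame with no stop codon) found 7 further oligos that the longer ones miss, and 6 shorter class II stretches again found 0. These stretches were picked after the oligo sequences had been read. The same stretches matched 0 oligos on the reverse strand. The files name each oligo only by an identifier. No gene symbol is given here, and class I oligos that lie outside coding sequence cannot be recognised in this way.

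The samples were spleen RNA from 564 Igi mice and from C57BL/6 wild type controls. In 564 Igi, rearranged antibody genes for both chains of an autoantibody were knocked in, on the C57BL/6 background. All were labelled female. The 564 Igi groups were sampled at 4 months (3 arrays), 8 months (3 arrays) and 12 months (4 arrays), and C57BL/6 at 4 months only (2 arrays). The labels give the knock-in genotype as 564+/-, their protocol text says that 564+/+ homozygotes were used throughout, and part of that colony drank water with ampicillin, metronidazole, neomycin and vancomycin, without a statement on which samples this touches. The labels do not tie each array to an animal of its own. The p-values therefore reflect only how these arrays scatter, and that scatter may be technical. Each array held spleen RNA in Cy3 and a universal reference RNA in Cy5, and levels are log2 of spleen over reference, a relative scale on which 1 unit is a doubling. Spleen was in Cy3 on every array. A dye effect of an oligo therefore cannot be told apart from a difference between spleen and reference. The labelled tissue could not be checked against marker genes, since the oligos are unnamed. The share of oligos well above background in Cy3 was 69.4% to 75.9% on 11 arrays and 91.2% on 564 Igi 4 months replicate 1. Slide 1 held 4 of the 564 Igi arrays and 0 of the C57BL/6 arrays, while 1 C57BL/6 array and 3 of 564 Igi lay on slide 2, and the same numbers on slide 3.

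MHC class I molecules sit on the surface of nearly all nucleated cells and show peptides from proteins made inside the cell to CD8 T cells. Each is a heavy chain with an outer part that holds the peptide, formed by the alpha 1 and alpha 2 domains, and an immunoglobulin-like alpha 3 domain next to the membrane, which pairs with beta-2-microglobulin and is touched by CD8. Class II molecules are made mainly by B cells, dendritic cells and macrophages and show peptides from ingested proteins to CD4 T cells. Lymphocytes of the spleen carry much class I on their surface, and interferons raise its transcription in many cell types. The mouse genome holds many class I genes with closely similar alpha 3 sequences, so 1 oligo may bind transcripts of several of them, and its signal cannot be split among them.

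The 8 class I oligos are shown 5′ to 3′ with the bases that encode the matched stretch in capitals, because the sequence is the only identity they have in these data. Domains are those of the matched stretch, and the other bases of an oligo may lie in a neighbouring domain. M400009686, the match of the longer stretches, has its stretch in the alpha 3 domain.
M400009686: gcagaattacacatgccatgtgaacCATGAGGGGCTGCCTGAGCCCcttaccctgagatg
The oligos with AHVTHH also have that stretch in alpha 3 and overlap one another.
M400009660: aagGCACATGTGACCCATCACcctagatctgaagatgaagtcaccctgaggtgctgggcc
M400010126: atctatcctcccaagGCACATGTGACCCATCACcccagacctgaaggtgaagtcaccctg
M400010130: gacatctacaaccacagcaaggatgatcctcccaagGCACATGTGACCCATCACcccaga
The oligos with YYNQS have that stretch near the end of alpha 1, so the bases after it may lie outside alpha 1.
M400008495: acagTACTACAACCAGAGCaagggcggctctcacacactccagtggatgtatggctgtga
M400004214: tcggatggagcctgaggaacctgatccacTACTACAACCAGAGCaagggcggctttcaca
The oligos with RFDSD read in the first part of alpha 1.
M400005000: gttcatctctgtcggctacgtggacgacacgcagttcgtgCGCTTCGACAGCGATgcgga
M400010128: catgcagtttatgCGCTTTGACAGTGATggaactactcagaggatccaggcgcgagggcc

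Several of these oligos share sequence and are not independent readings. M400010126 and M400010130 share a run of 35 bases, and M400009660 shares 23 bases with each of them. M400008495 and M400004214 share a run of 25 bases and are identical at 32 of the 35 bases in which they overlap. M400009686 shares no run of 16 bases or more with any other oligo of the arrays. M400010130 is built of a pair of stretches found apart on other oligos: its bases 26 to 60 are those it shares with M400010126, and its bases 1 to 26 are shared with M400010129, an oligo that matched no class I stretch. M400010129 is shown with that shared run in capitals.
M400010129: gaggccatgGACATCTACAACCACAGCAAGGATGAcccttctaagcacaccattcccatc
The G+C content of the 8 class I oligos was 53.3% to 60%.

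Of the 8 oligos, 7 gave a signal well above background on every one of the 12 arrays in Cy3 and in Cy5, and M400010128 was so in Cy3 on 1 array and in Cy5 on 0. Testing required a Cy3 signal well above background throughout 1 group or more, which left out M400010128. Of the 35852 oligos of the arrays, 26278 were tested. No spot of the 8 oligos was saturated or uneven, so all 12 arrays entered each value.

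M400009686 was bright in spleen RNA, and its spleen signal was above its reference signal on every array. Its mean Cy3 signal ran from 13708 to 25429 over the 12 arrays, on a local background of 23.0 to 35.0, and its mean Cy5 signal from 3403 to 7375. The log2 ratio was 2.29 and 2.43 on the C57BL/6 arrays (replicates 1 and 2), and 2.41, 2.22 and 2.36 on the 564 Igi arrays of 4 months (replicates 1 to 3). At 8 months it was 2.30, 1.98 and 1.65 (replicates 1 to 3), and at 12 months 2.12, 2.10, 2.22 and 2.68 (replicates 1 to 4). The lowest array was 564 Igi 8 months replicate 3 and the highest was 564 Igi 12 months replicate 4, and no pair of groups was apart without overlap.

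In order of level, the group means of M400009686 were 2.36 ± 0.10 (SD, n = 2) in C57BL/6, 2.33 ± 0.10 (SD, n = 3) in 564 Igi at 4 months, 2.28 ± 0.27 (SD, n = 4) at 12 months and 1.98 ± 0.33 (SD, n = 3) at 8 months. The first 3 lay within 0.08 of each other, less than the SD of any of these groups. The 12-month and 8-month means differed by 0.30 (SE 0.16), close to the SDs of those groups.

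Genotype was compared at 4 months, the only age with both strains. The knock-in and control spleens did not differ detectably in class I signal. For M400009686 the log2 fold change was -0.03 (SE 0.20), a ratio of 0.980 with a 95% interval of 0.728 to 1.32 (limma, adjusted p = 0.968). Of the 7 class I oligos tested, 0 were called at an adjusted p under 0.05 and 0 had an unadjusted p under 0.05, beside 0.407% of all oligos called. Among all 26278 oligos tested, 3312 had an unadjusted p under 0.05. The median log2 fold change of the 7 class I oligos was -0.03, with 2 above 0 and 5 below. Over all oligos tested the median was 0.01 (quartiles -0.12 and 0.15), and 52.1% were above 0. With median centring the class median was 0.36. A p that misses the threshold does not show equal levels. For M400009686, ratios across its 95% interval remain compatible with these arrays. That interval is not adjusted for the number of oligos tested and is not a limit of detection. Within slide 2, where the groups had 1 array apiece, M400009686 differed by 0.07. Its sign was not stable: it was 0.06 with the scanner software's processed ratios, 0.08 with the sample channel alone and 0.36 with median centring, under which the median of all oligos was 0.22.

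The highest fold changes in that comparison belonged to M400008495 and M400005000, whose matched stretches lie in alpha 1. M400008495 had log2 ratios of 2.16 and 2.14 on the C57BL/6 arrays and 2.50, 2.37 and 2.44 on the 4-month 564 Igi arrays. The groups did not overlap, and 18.1% of all oligos were likewise apart with 564 Igi higher. The log2 fold change was 0.29 (SE 0.27, limma, adjusted p = 0.689). M400005000 did not overlap either, with 1.89 and 2.07 in C57BL/6 and 2.24, 2.15 and 2.18 in 564 Igi, a log2 fold change of 0.21 (SE 0.18, limma, adjusted p = 0.649). The third oligo tested with its matched stretch in alpha 1 was M400004214, which shares 25 bases with M400008495. Its groups did overlap, with 2.12 and 2.22 against 2.21, 1.86 and 2.28 and a log2 fold change of -0.05 (SE 0.23). The lowest fold change was that of M400010126, whose matched stretch lies in alpha 3, with a value of -0.08 (SE 0.20, limma, adjusted p = 0.910). It had 2.19 and 2.21 in C57BL/6 and 2.24, 1.99 and 2.15 in 564 Igi, so the groups overlapped.

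M400008495 differed more between the strains in spot brightness than in its ratio. Its Cy3 signal was 4615 and 3707 on the C57BL/6 arrays and 12570, 8747 and 8239 on the 4-month 564 Igi arrays. Its Cy5 signal, from the common reference, was also lower on the C57BL/6 arrays, at 1212 and 1375, than on those 564 Igi arrays, at 1995, 1420 and 1844. With the sample channel alone the log2 fold change was 1.07 in place of 0.29 and did not pass (limma, adjusted p = 0.448). The same held at the later ages: with the sample channel alone M400008495 differed from C57BL/6 by 0.67 in place of 0.09 at 8 months and by 0.75 in place of 0.13 at 12 months (limma, adjusted p = 0.533 and 0.446).

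The 8-month and 12-month 564 Igi groups were also set against C57BL/6 at 4 months, where genotype and age cannot be told apart and the control arrays are the same as above. At 8 months M400009686 had the lowest fold change of the class I oligos, -0.38 (SE 0.20), a ratio of 0.768 with a 95% interval of 0.571 to 1.03, and did not pass (limma, adjusted p = 0.419). Of the 7 class I oligos, 0 were called and 0 had an unadjusted p under 0.05, beside 0.624% of all oligos called (3669 of 26278 had an unadjusted p under 0.05). Their median was -0.25, with 1 above 0 (M400008495, at 0.09) and 6 below, against 0.00 over all oligos (quartiles -0.13 and 0.13), of which 49.7% were above 0. The class median was -0.04 with median centring, where the median of all oligos was 0.08. M400010126 had 8-month ratios of 2.16, 1.86 and 1.57, all below its C57BL/6 ratios, and 15.2% of all oligos were likewise apart with 564 Igi lower. The values moved with single arrays. Without 564 Igi 8 months replicate 3 the class median was -0.08 and M400009686 was at -0.22, and without replicate 1 of that group they were -0.41 and -0.54. Within slides 2 and 3, each with 1 array of either group, M400009686 differed by -0.31 and -0.78.

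At 12 months M400009686 differed from C57BL/6 by -0.08 (SE 0.19), a ratio of 0.948 with a 95% interval of 0.715 to 1.26 (limma, adjusted p = 0.920). Again 0 of the 7 class I oligos were called and 0 had an unadjusted p under 0.05, beside 0.906% of all oligos called (3341 of 26278 had an unadjusted p under 0.05). The class median was -0.07, with the oligos between -0.12 (M400010130) and 0.13 (M400008495), and the median of all oligos was 0.00, with 50.7% above 0. The array with the highest median log2 ratio of the class I oligos, relative to C57BL/6, was 564 Igi 12 months replicate 4. Without it the class median was -0.21 and M400009686 was at -0.21. Without replicate 1 of that group the class median was 0.01. Within slides 2 and 3 M400009686 differed by -0.18 and 0.02.

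Ages were then compared within 564 Igi. From 4 to 8 months every class I oligo tested had a value below 0, from -0.35 for M400009686 to -0.14, with a median of -0.25 against -0.01 over all oligos, of which 46.8% were above 0. The 7 oligos were measured on the same arrays and some share sequence, so they do not count as 7 separate findings. None passed in limma, 0 had an unadjusted p under 0.05, and 0% of all oligos were called (826 of 26278 had an unadjusted p under 0.05). M400009686 had an SE of 0.18, a ratio of 0.784 and a 95% interval of 0.601 to 1.02. The smallest p belonged to M400005000, whose 8-month ratios of 2.11, 1.96 and 1.49 all lay below its 4-month ratios of 2.24, 2.15 and 2.18. Its log2 fold change was -0.34 (SE 0.16, limma, adjusted p = 1.00 after rounding), and 4.96% of all oligos had the 8-month group apart and lower. Without 564 Igi 8 months replicate 3 the values were -0.19 for M400009686, -0.15 for M400005000 and -0.10 for the class median. Without replicate 1 of that group they were -0.51, -0.46 and -0.41, and with median centring -0.53, -0.54 and -0.45, where the median of all oligos was -0.13. Within slides 1 and 2 M400009686 differed by -0.01 and -0.38, and the class median by 0.05 and -0.22.

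Between 12 and 4 months M400009686 differed by -0.05 (SE 0.16), a ratio of 0.967 with a 95% interval of 0.754 to 1.24 (limma, adjusted p = 0.964). Of the 7 class I oligos, 0 were called and 0 had an unadjusted p under 0.05, beside 0.00381% of all oligos called (2007 of 26278 had an unadjusted p under 0.05). M400005000 again had the smallest p, with 12-month ratios of 1.64, 2.05, 1.84 and 2.09, all below those of 4 months, and a log2 fold change of -0.29 (SE 0.15, limma, adjusted p = 0.672). With uneven-background spots and their own backgrounds kept M400005000 was at -0.05, and with median centring at -0.74 (limma, adjusted p = 0.909 and 0.204). The 12-month group was apart and lower for 4.37% of all oligos. The class median was -0.07, with 2 above 0 and 5 below, and 49.6% of all oligos were above 0. It was -0.22 without 564 Igi 12 months replicate 4, 0.01 without replicate 1 of that group, 0.08 with uneven-background spots kept and -0.56 with median centring, where the median of all oligos was -0.24. Within slides 1 and 2 M400009686 differed by -0.19 and -0.26, and the class median by -0.43 and -0.13.

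From 8 to 12 months every class I oligo tested had a value above 0, from 0.05 to 0.30 for M400009686. Their median was 0.17 against 0.00 over all oligos, of which 51.1% were above 0. With median centring the class median was -0.13, where the median of all oligos was -0.09. No class I oligo was called and 0 had an unadjusted p under 0.05, beside 0% of all oligos called (1110 had an unadjusted p under 0.05). For M400009686 the SE was 0.16 and the ratio 1.23, with a 95% interval of 0.962 to 1.58. Each slide held 1 array of 8 months. M400009686 differed by -0.18, 0.12 and 0.80 within slides 1, 2 and 3, and the class median by -0.47, 0.09 and 0.70. With slide as a block in the fit they were 0.30 and 0.14. Leaving out replicate 4 of the 12-month group took the class median to 0.02, and leaving out its replicate 1 took it to 0.26. In the 8-month group, leaving out replicate 3 gave 0.03 and replicate 1 gave 0.28. Over the 3 ages together the F test of limma gave M400009686 an adjusted p of 0.929, and the smallest adjusted p of the class I oligos was also 0.929, beside 0.00381% of all oligos called.

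All 7 class I oligos lay on the same side of the C57BL/6 mean on 4 of the 10 arrays of 564 Igi, and on both sides of it on the other 6. Relative to the C57BL/6 mean, the median of the 7 was -0.55 on 564 Igi 8 months replicate 3 and -0.32 on 564 Igi 12 months replicate 1, with all 7 below 0 on both. It was 0.34 on 564 Igi 12 months replicate 4, with all 7 above 0 and the individual oligos between 0.11 and 0.51. On 564 Igi 4 months replicate 1 all 7 were also above 0, at a median of 0.05. The other 564 Igi arrays had medians from -0.21 (8 months replicate 2, with 1 above 0 and 6 below) to 0.02 (8 months replicate 1, with 4 above and 3 below, from -0.06 to 0.53), and the C57BL/6 arrays lay at -0.05 and 0.05. The median over all tested oligos was between -0.01 and 0.01 on every array, and on 8 months replicate 3 and 12 months replicate 4 their quartiles were -0.19 and 0.17, and -0.16 and 0.20. Within 564 Igi, the class medians of the log2 ratio thus spread more widely at 8 and 12 months than at 4 months, where they were 0.05, -0.14 and 0.00. That wider spread rested on 8 months replicate 3 and 12 months replicates 1 and 4, and it was not tested. Slide 3, which held no 4-month array of 564 Igi, carried 8 months replicate 3 and 12 months replicate 4. The remaining one, 12 months replicate 1, lay on slide 1. Age and slide are therefore partly mixed in this spread, and the 12-month group also had more arrays than the 4-month group. The C57BL/6 arrays set the zero of this scale and are left out of the comparison.

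The oligos with AHVTHH show the same arrays at the ends. M400009660 had 2.41 and 2.42 in C57BL/6, then 2.44, 2.25 and 2.35 at 4 months, 2.44, 2.22 and 1.98 at 8 months and 2.10, 2.27, 2.31 and 2.83 at 12 months. M400010130 had 2.24 and 2.44 in C57BL/6, then 2.42, 2.28 and 2.32 at 4 months, 2.39, 2.13 and 1.74 at 8 months and 1.83, 2.23, 2.18 and 2.63 at 12 months. For both, 12 months replicate 4 was the highest array and 8 months replicate 3 the lowest. At 8 and 12 months M400010126 had 2.16, 1.86 and 1.57, then 1.88, 2.02, 2.05 and 2.57, and it was also highest on 12 months replicate 4 and lowest on 8 months replicate 3.

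The tested oligos with a matched stretch in alpha 1 differed among themselves in which array was highest. M400004214 had 2.15, 1.89 and 1.62 at 8 months and 1.60, 1.98, 2.13 and 2.50 at 12 months, with 12 months replicate 4 the highest array and 12 months replicate 1 the lowest. For M400008495 the values were 2.68, 2.38 and 1.65 at 8 months and 1.83, 2.32, 2.33 and 2.66 at 12 months, so that 8 months replicate 1 was the highest array, next to 12 months replicate 4. M400005000 was highest on the arrays of 4 months, at 2.15 to 2.24, and had 2.11 on 8 months replicate 1 and 2.09 on 12 months replicate 4. Over the 7 oligos and 12 arrays the log2 ratio stayed between 1.49 and 2.83. Each class I oligo tested thus had a spleen signal above its reference signal in every sample of both strains, with the dyes not swapped.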

How the data were processed

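Spleen RNA of 12 samples was measured on 2-colour Agilent arrays. Per the file headers, the authors quantified them with Agilent Feature Extraction 11.5.1.1. The deposited intensity columns hold mean spot and median background brightness on the linear scanner scale, before normalization. The deposited log10 ratio is reference over sample after background removal and lowess, per the file headers, and the deposited series table repeats it within 0.005. Other deposited columns are flags.

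Here the background was corrected with limma 3.58.1 in R 4.3.3 by normexp (offset 50), followed by loess within arrays, in which control spots had weight 0. Spots with uneven background received their array's median background for the fit, and uneven spots (17 to 80 oligo spots per array) were then left out. One limma fit (lmFit, eBayes; 8 residual and 3.71 prior degrees of freedom) covered all 12 arrays, with Benjamini-Hochberg adjustment over 26278 oligos and a threshold of 0.05. Sequences were translated with Biopython 1.88. The number of arrays limits the precision.

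The members, rules and tests were chosen with earlier results of these data known. Oligos given with a fold change are M400009686 in every comparison, the lowest and highest class I oligo against C57BL/6, and the one with the smallest p between ages. This rule was applied to the 8 oligos after their values had been seen, and M400005000 at 4 months and M400010126 at 8 months were named after their values were seen. The planned lists for antigen presentation, interferon response and cell types needed gene names and were not used here. Numbers of replicates shared between groups were not treated as pairs in the main fit. The 15 same-numbered pairs correlated at -0.229 to 0.293 in their deviations, which cannot exclude pairing in groups this small. Alternatives covered background, scaling, filters, blocks and each array left out. The one called uneven-background spots kept also gave those spots their own background in place of the array's median. That enters the background correction and loess of the whole array, so oligos without uneven spots can move under it.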

Additional observations from a re-analysis of the deposited data

Results flagged for a closer look

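M400010128, the class I oligo left out of the tests, was well above background in Cy3 on 1 of the 10 arrays of 564 Igi and on 0 of the 2 C57BL/6 arrays. That array was 4 months replicate 1, on which 91.2% of all oligos were well above background, and its Cy3 signal there was 78.6, against 48.0 to 56.7 on the other 11. M400010129, which shares 26 bases with M400010130 but matched no class I stretch, was well above background on 4 of the 10 arrays of 564 Igi and on 0 of the 2 C57BL/6 arrays. Its Cy3 signal was 66.8 and 56.2 on the C57BL/6 arrays and 59.6 to 91.7 on the 564 Igi arrays, so the ranges overlapped. In Cy5 it was well above background on 0 arrays. Both oligos are listed because they were above background on some 564 Igi array and on no C57BL/6 array. That pattern was the rule of selection and is no result. The share of all dim oligos with the same pattern was not computed, and there were more 564 Igi than C57BL/6 arrays.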

How the results depend on the processing

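Under all 22 alternatives, no class I oligo passed in any of the 6 comparisons. The smallest adjusted p was 0.204 (limma), for M400005000 and M400009686 between 12 and 4 months with median centring, where their log2 fold changes were -0.74 and -0.56. Directions near 0 were not stable. At 4 months against C57BL/6, M400009686 (-0.03) was 0.06 with processed ratios, 0.08 with the sample channel alone, 0.36 with median centring and 0.01 with the replicate block, and M400010126 was 0.01 with processed ratios and 0.33 with median centring. The class median there was -0.13 with uneven-background spots kept, 0.08 with the sample channel alone and 0.36 with median centring. With uneven-background spots kept, M400009686 was 0.01 between 12 and 4 months and M400008495 was 0.00 (after rounding, below 0) at 8 months against C57BL/6, where processed ratios gave -0.10. With median centring, M400009686 was -0.04 between 12 and 8 months, M400008495 was 0.00 (below 0) at 12 months against C57BL/6, and the class median between 12 and 4 months was -0.56. Median centring moved the median of all oligos to 0.22, 0.08 and -0.01 against C57BL/6 at 4, 8 and 12 months, and to -0.13, -0.24 and -0.09 for 8 against 4, 12 against 4 and 12 against 8 months. The causes were not tested.

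With each array left out in turn, M400009686 ranged from -0.10 to 0.04 at 4 months, -0.54 to -0.22 at 8 months and -0.21 to -0.01 at 12 months against C57BL/6, and from -0.51 to -0.19, -0.18 to 0.01 and 0.14 to 0.46 for 8 against 4, 12 against 4 and 12 against 8 months. M400008495 at 8 months ranged from -0.14 to 0.38, and M400010130 at 12 months from -0.26 to 0.00. The replicate block changed no call of a class I oligo. The number of all oligos called against C57BL/6 was 164 at 8 months and 238 at 12 months (0.407% of oligos at 4 months). Leaving out arrays gave 69 to 206, 101 to 577 (without 564 Igi 8 months replicate 2) and 159 to 284 at 4, 8 and 12 months, and the other alternatives gave 54 to 197, 69 to 202 and 110 to 310. Between ages it was 0, 1 and 0 for 8 against 4, 12 against 4 and 12 against 8 months, with up to 0, 8 and 2 without 1 array and up to 0, 6 and 1 otherwise.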
